A study of Mus musculus with 6 samples.

Results

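The genes described here are 34 regulators of pre-mRNA splicing measured in mouse aorta: the CLK kinases, the SR proteins and SR-related factors, a set of hnRNP proteins, the LUC7-like proteins, the speckle proteins Son and Pnisr, 2 RNA-binding proteins and 2 DEAD-box helicases. They were taken by gene symbol from the 55487 genes of the deposited table, and each symbol matched 1 gene identifier. RNA came from aorta tissue in 6 libraries. The 3 control libraries, titled SM22-Ctrl, carried the genotype LoxP, read here as an Ogt gene flanked by loxP sites. The 3 knockout libraries, titled SM22-∆Ogt, carried the genotype Ogt SMC specific knockout, SMC standing for smooth muscle cell. SM22 is another name for transgelin, the product of Tagln, whose promoter is widely used to express genes in smooth muscle, but the labels name no Cre line. They also give no age or sex and do not say whether a library is 1 mouse, so the p-values measure the spread between these libraries, which may be partly technical.

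Splicing regulators decide which exons enter a messenger RNA. SR proteins bind exonic enhancer sequences through RNA recognition motifs and recruit the spliceosome through an arginine- and serine-rich (RS) tail, and many hnRNP proteins bind silencer sequences and oppose them. CLK kinases phosphorylate the RS tail in the nucleus and release SR proteins from nuclear speckles. Many of these genes control their own level by splicing in an exon with an early stop codon or by keeping an intron, so that part of their RNA is degraded or held in the nucleus. O-GlcNAc transferase, the product of Ogt, attaches a single sugar to many proteins of the nucleus and cytoplasm, splicing factors among them, and Ogt itself and Oga, which encodes the enzyme that removes the sugar, are known for regulated intron retention.

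Total counts per library ran from 3038782 in control 2 to 18218385 in knockout 3, and the other 4 libraries had 11845644 to 17223643. Control 2 stood apart: 10.2% of its counts were mitochondrial ribosomal RNA, where the other 5 libraries had 0.491% to 0.823%, and 1.63% were the nuclear RNA Malat1, where the others had 0.219% to 0.305%. Levels are given as CPM, read counts scaled to a common library size with TMM (trimmed mean of M values). Ogt had 177.4, 183.2 and 149.97 CPM in controls 1 to 3 and 93.3, 73.5 and 70.9 in knockouts 1 to 3, so the labelled genotype was visible in each library (log2 fold change -1.10 ± 0.15, SE; edgeR adjusted p = 0.0214). It did not pass the threshold when control 1 (adjusted p = 0.105) was left out, nor without knockout 1, 2 or 3 (0.0729, 0.126 and 0.0732), with a log2 fold change of -1.22 to -1.02 in the 6 fits that left out 1 library. Oga had 110.1 to 121.8 CPM in controls and 61.5 to 67.7 in knockouts (-0.82 ± 0.11, adjusted p = 0.0198), and its call was lost without the same libraries (0.0959, 0.132, 0.123 and 0.0708). All 8 smooth muscle markers were measured, and their summed level was 28673 to 34831 CPM in controls and 23916 to 28372 in knockouts, with Tagln the 1 marker called lower (adjusted p = 0.0331, and up to 0.186 without 1 library). Without Tagln the other 7 markers summed to 23694 to 28766 CPM in controls and 21573 to 25503 in knockouts, which overlap. Brown adipocyte markers (5 of 5 tested) summed to 108.1 to 168.3 CPM in controls and 63.1 to 71.4 in knockouts, with Ucp1 and Cox8b called lower (adjusted p = 0.00230 and 0.0398, and up to 0.0337 and 0.186 without 1 library). The other 3 summed to 64.3 to 119.4 CPM and 52.1 to 59.3 CPM. Skeletal muscle markers (4 of 6 tested) summed to 5.56 to 12.4 CPM in controls and 46.3 to 68.7 in knockouts, but Ckm alone, called higher, carried that difference: the other 5 markers summed to 2.60 to 8.58 CPM in controls and 3.82 to 7.69 in knockouts. In the other 9 lists of cell types no tested marker was called and the groups' ranges overlapped. The lymphocyte and mesothelium lists had 0 tested markers, so no call was possible there, and their sums were at most 4.59 CPM. Of the neuron and Schwann cell list, 4 of 6 markers were tested. No marker of any list was at 0 in all 6 libraries. The part of these shifts in the results below was not tested, and in bulk tissue fewer cells of a type and less RNA per cell cannot be told apart.

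The summed abundance of these splicing regulators differed between groups by less than the spread among controls. It was 7650.5 ± 262 CPM in controls against 7551 ± 67.3 in knockouts (SD, n = 3), which is 98.7% of control. The sums were 7779, 7349 and 7823.5 CPM in controls 1 to 3 and 7524, 7628 and 7503 in knockouts 1 to 3. All knockouts thus lay below controls 1 and 3 and above control 2. All 34 passed the filter on low counts, and their lowest count in any library was 78, for Srsf9 in control 2. In edgeR's quasi-likelihood test with Benjamini-Hochberg adjustment over all 16139 tested genes, 0 of the 34 members were called at an adjusted p under 0.05, beside 3.45% of all tested genes (0 higher beside 1.9%, 0 lower beside 1.56%). At an unadjusted p under 0.05 there were 5 members, against 22.7% of all tested genes: Srsf7 and Srsf11 with higher values in the knockouts, and Srsf1, Luc7l2 and Son with lower values. DESeq2 called 3 members, Srsf1, Luc7l2 and Son, all lower, against 9.3% of all tested genes, and limma with voom called 0, against 4.73%. Without control 2, edgeR called 0 members, against 5.51%.

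The log2 fold changes (knockout minus control) ran from -0.62 for Srsf1 to 0.56 for Luc7l, with 20 positive and 14 negative and a median of 0.03, beside a median of -0.01 over all tested genes. The median size of a member's change, without its sign, was 0.16. It was 0.29 over all tested genes and 0.23 over the 5599 tested genes with at least the mean CPM of the member with the lowest level. The 95% interval of 27 members lay within a 1.5-fold change in either direction. So did those of 4327 of all 16139 tested genes and of 2716 of the 5599. The 7 members whose interval reached past a 1.5-fold change were Srsf1, Srsf3, Srsf11, Tra2a, Hnrnpd, Luc7l and Luc7l2. The intervals of Srsf3 and Luc7l also reached past a 2-fold change. The control and knockout libraries did not overlap for 12 members (35.3%), against 31.8% of all tested genes and 36.4% of the 5599. Of the 12, 9 had higher knockout values, against 16.9% of all tested genes and 1260 of the 5599. The other 3 had lower ones, against 14.8% and 780 of the 5599. Without control 2 the groups were apart for 16 members, with Tra2b (higher) and Srrm1, Hnrnpa1 and Ddx5 (lower) joining the 12, against 45.3% of all tested genes. The highest library was less than 1.5 times the lowest for 28 members.

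**Figure D1:**
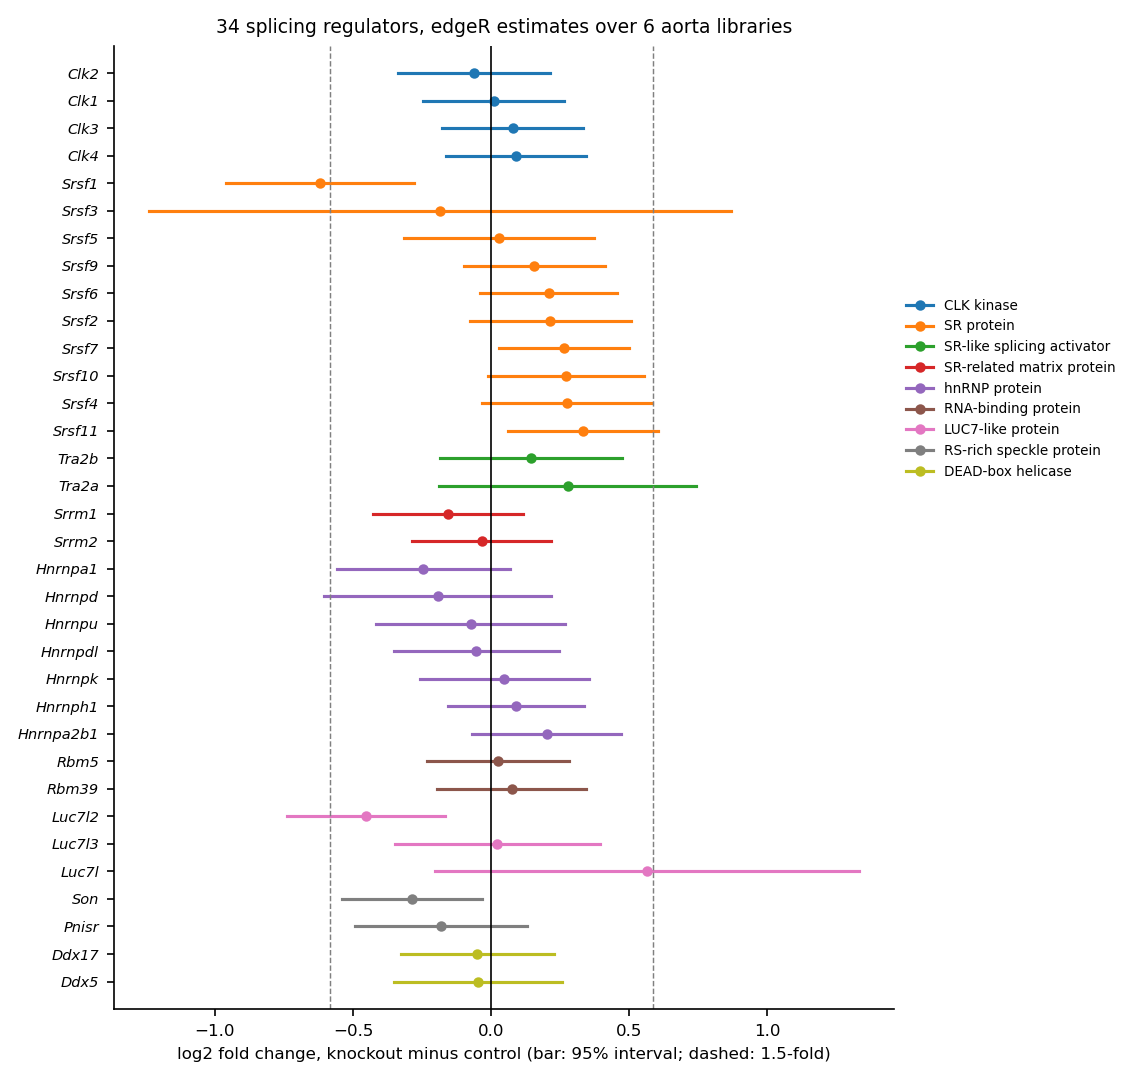
Log2 fold change (knockout minus control, horizontal axis) of the 34 splicing regulators, grouped and coloured by family, from edgeR over 6 libraries; points are estimates, bars are 95% intervals and dashed lines mark a 1.5-fold change. The intervals of 5 members exclude 0, and those of Srsf3 and Luc7l are the widest.

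Promoter sequences are shown for 4 members, to let the start regions of SR, SR-like and hnRNP genes be compared. They are Srsf1, the member with the lowest log2 fold change, and Srsf7, which had the smallest standard error of the SR genes that were higher in every knockout library. The others are Tra2b and Hnrnpa2b1, which both hold, on either strand, the core TGACGT of a cyclic AMP response element (CRE). Each is the 250 bases before the RefSeq start on GRCm38.p6, 5′ to 3′ on the gene's strand, at chr11:88047123-88047372 (Srsf1, plus strand), chr17:80207306-80207555 (Srsf7, minus strand), chr16:22266006-22266255 (Tra2b, minus strand) and chr6:51469895-51470144 (Hnrnpa2b1, minus strand). Capitals mark matches to the motifs searched, named below.
Srsf1: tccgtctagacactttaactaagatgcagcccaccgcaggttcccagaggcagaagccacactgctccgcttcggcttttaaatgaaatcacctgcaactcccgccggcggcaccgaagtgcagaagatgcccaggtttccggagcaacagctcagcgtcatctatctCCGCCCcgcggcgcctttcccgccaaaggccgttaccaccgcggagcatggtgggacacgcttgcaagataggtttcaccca
Srsf7: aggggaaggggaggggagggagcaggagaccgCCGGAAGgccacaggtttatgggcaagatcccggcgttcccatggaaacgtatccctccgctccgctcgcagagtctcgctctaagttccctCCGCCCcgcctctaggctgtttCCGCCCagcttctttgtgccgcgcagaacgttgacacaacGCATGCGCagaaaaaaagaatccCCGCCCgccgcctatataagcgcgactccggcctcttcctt
Tra2b: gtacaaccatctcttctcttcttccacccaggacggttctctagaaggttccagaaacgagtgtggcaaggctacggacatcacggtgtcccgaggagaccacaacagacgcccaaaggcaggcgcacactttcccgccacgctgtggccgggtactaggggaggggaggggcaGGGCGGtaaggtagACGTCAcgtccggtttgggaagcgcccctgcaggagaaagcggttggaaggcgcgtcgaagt
Hnrnpa2b1: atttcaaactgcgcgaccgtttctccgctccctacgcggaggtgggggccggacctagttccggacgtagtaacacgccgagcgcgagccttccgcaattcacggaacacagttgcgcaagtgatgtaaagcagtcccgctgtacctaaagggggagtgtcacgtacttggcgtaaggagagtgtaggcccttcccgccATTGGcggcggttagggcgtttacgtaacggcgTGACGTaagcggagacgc
The capitals are a GC box in Srsf1, an ETS core, 3 GC boxes and an NRF1 core in Srsf7, a GC box and a CRE core in Tra2b, and a CCAAT box and a CRE core in Hnrnpa2b1.

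Of the 34 members, 26 had such a window within 500 bp of the start of the gene as the table places it, as had 9186 tested protein-coding genes. On either strand, the CRE core TGACGT stood in 9 of the 26 windows (34.6%) and in 10.6% of all windows. The 9 were Srsf3, Srsf6, Srsf11, Tra2a, Tra2b, Hnrnpa2b1, Hnrnph1, Son and Ddx17, whose log2 fold changes had both signs. The CCAAT box (CCAAT) stood in 13 (50% against 36.7%), the GC box (GGGCGG) in 20 (76.9% against 60.0%) and the ETS core (CCGGAAG) in 6 (23.1% against 14.2%). The E-box CACGTG (7.69% against 8.59%), TATAAA (7.69% against 6.38%) and the NRF1 core GCATGCGC (7.69% against 4.66%) each stood in 2. No pair of these motifs is the same sequence, and matches may overlap. The windows had a median GC content of 64.2% and a median of 24 CpG sites, against 60.0% and 16 over all windows. A match is a run of letters and does not show that a factor binds there.

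None of the 4 CLK kinase genes was called, and all 4 intervals lay within a 1.5-fold change. Clk1, the best studied kinase of the family, had 180.0, 181.3 and 189.9 CPM in controls 1 to 3 and 171.3, 192.4 and 190.9 CPM in knockouts 1 to 3. Its groups overlapped fully, and its log2 fold change was 0.01 (95% interval -0.25 to 0.26; edgeR adjusted p = 0.976). Clk4, the closest relative of Clk1, had 89.7, 98.6 and 94.4 CPM in controls and 94.0, 105.7 and 101.1 CPM in knockouts. Knockout 2 was highest and control 1 lowest, with overlap between the groups (0.09 ± 0.11, adjusted p = 0.658). Clk2 had 51.0 to 62.1 CPM in controls and 53.5 to 56.4 in knockouts, and Clk3 had 64.5 to 74.5 and 72.1 to 77.6. Both overlapped between groups, with log2 fold changes of -0.06 (adjusted p = 0.793) and 0.08 (0.712). Summed, the 4 kinases had 406.5 ± 18.5 CPM in controls against 414.9 ± 17.7 in knockouts. Per kilobase of merged exon, Clk1 was the most abundant in controls (22.6 ± 0.66 CPM per kb), then Clk4 (16.3 ± 0.77), Clk2 (10.9 ± 1.13) and Clk3 (8.37 ± 0.64), and in knockouts the order was the same. Of that length, 54.8% (Clk2) to 63.8% (Clk1) lies only in transcripts that keep an intron. In CPM, Clk3 lay above Clk2, so the order of Clk2 and Clk3 depends on the length used.

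Among the 10 SR protein genes, 1 had lower values in every knockout library and 7 had higher values in every knockout library, beside 14.8% and 16.9% of all tested genes, and 2 overlapped between groups. None was called by edgeR. Srsf1 encodes the prototype SR protein, which promotes exon inclusion and is a known oncoprotein (ENSMUSG00000018379; GRCm38 chromosome 11, 88047373 to 88053755). It had 84.6, 93.1 and 92.9 CPM in controls 1 to 3 and 48.8, 58.3 and 68.6 CPM in knockouts 1 to 3. The highest knockout library lay below the lowest control library. The means were 90.2 ± 4.84 and 58.6 ± 9.91 CPM, or 65.0% of control, with a log2 fold change of -0.62 ± 0.15 (SE; 95% interval -0.96 to -0.28). The adjusted p was 0.0636 in edgeR's test, 0.0548 in limma and 0.00991 in DESeq2, and it ran from 0.0712 to 0.239 in the 6 edgeR fits that left out 1 library.

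The 7 SR genes with higher knockout values were Srsf2, Srsf4, Srsf6, Srsf7, Srsf9, Srsf10 and Srsf11. Their log2 fold changes ran from 0.16 for Srsf9 to 0.33 for Srsf11, below the size of the Srsf1 difference. In all 7, control 2 was the lowest of the 6 libraries, and the groups also stayed apart without it. Srsf11, a divergent SR protein, had 156.4, 154.2 and 166.2 CPM in controls and 204.0, 214.7 and 181.8 CPM in knockouts. Its lowest knockout library lay above its highest control library (0.33 ± 0.12, 95% interval 0.06 to 0.60; edgeR adjusted p = 0.150). Srsf7, which also acts in the export and 3′ end formation of messenger RNA, had 67.2, 67.1 and 69.1 CPM in controls and 81.0, 78.2 and 84.9 in knockouts. The controls lay close together below the knockouts (0.26 ± 0.10, 95% interval 0.03 to 0.50; adjusted p = 0.179).

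Srsf10, a splicing repressor when dephosphorylated, had 70.1, 69.7 and 81.1 CPM in controls and 81.3, 95.2 and 90.2 CPM in knockouts. Control 3 and knockout 1 differed only slightly, so its groups barely separated (0.27 ± 0.12, adjusted p = 0.237). Srsf4, a long-tailed SR protein, had 106.3, 85.3 and 112.7 CPM in controls and 126.4, 123.3 and 119.6 in knockouts (0.27 ± 0.13, adjusted p = 0.268). Srsf2, a core speckle component, had 215.6, 171.3 and 205.9 CPM in controls and 225.0, 231.0 and 232.7 in knockouts. For both genes the distance between groups was smaller without control 2: the log2 fold change went from 0.27 to 0.18 for Srsf4 and from 0.21 to 0.13 for Srsf2. Srsf6 had 228.8 to 236.6 CPM in controls and 259.6 to 283.2 in knockouts (0.21, adjusted p = 0.295). Srsf9, the least abundant of all 34 members in CPM, had 28.9 to 31.4 CPM in controls and 33.8 to 34.3 in knockouts (0.16, adjusted p = 0.435).

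Srsf3 and Srsf5 overlapped between groups. Srsf3 encodes the smallest SR protein, which links splicing with RNA export (chromosome 17, 29032628 to 29043373). It had 71.1, 79.3 and 158.4 CPM in controls and 145.9, 60.9 and 66.5 CPM in knockouts. Control 3 and knockout 1 stood far above the other 4 libraries, 1 in each group, and the highest library was 2.60 times the lowest. The log2 fold change was -0.19 ± 0.44 (95% interval -1.24 to 0.87; adjusted p = 0.842), so a change in either direction was not detectable at this spread. The processed pseudogene Srsf3-ps, named for its resemblance to Srsf3, had 6.54 to 8.94 CPM over the 6 libraries. Srsf5 had 290.4, 225.8 and 289.7 CPM in controls and 242.5, 293.0 and 287.2 in knockouts, with control 2 and knockout 1 lowest (0.03 ± 0.15, adjusted p = 0.936, and -0.07 without control 2). The summed level of the 10 SR genes was 1324 ± 118.3 CPM in controls and 1450.0 ± 21.1 in knockouts, and the lowest knockout sum, 1429.6 CPM, lay below that of control 3, 1440.0 CPM.

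**Figure D2:**
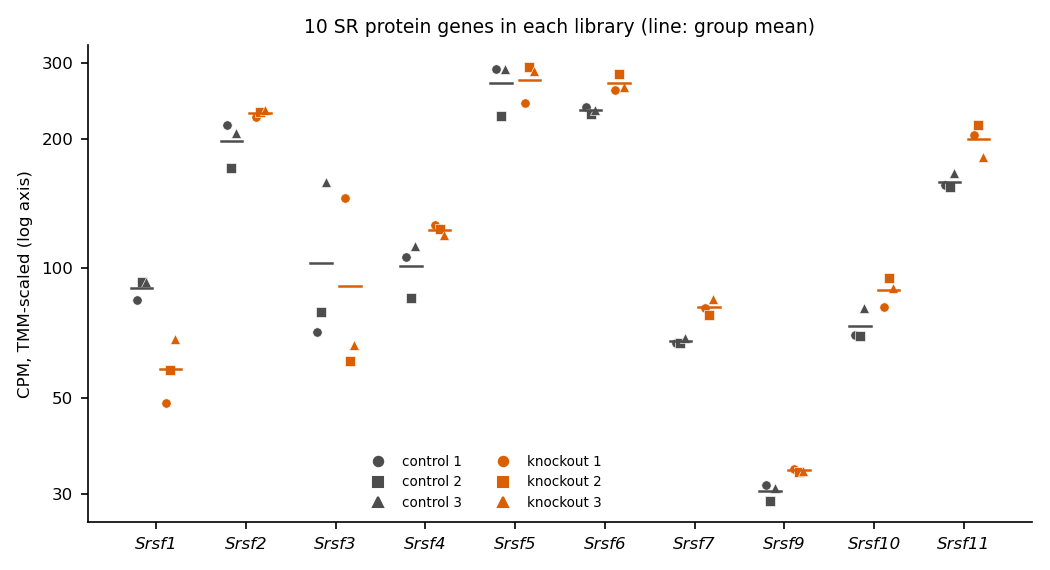
Level (CPM on a log axis) of the 10 SR protein genes in each of 3 control (grey) and 3 knockout (orange) libraries; symbols mark the replicate and lines the group means. Srsf1 lies lower in all 3 knockouts, 7 genes lie higher (16.9% of all tested genes do), and Srsf3 is high in control 3 and knockout 1.

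The transformer-2 homologues Tra2a and Tra2b, sequence-specific splicing activators with RS domains on both sides of their RNA recognition motif, had positive log2 fold changes and overlapping groups. Tra2a had 49.8, 80.8 and 73.0 CPM in controls and 88.8, 68.6 and 87.7 in knockouts, with control 1 lowest (0.28 ± 0.20, adjusted p = 0.449). Tra2b had 49.7, 69.3 and 63.6 CPM in controls and 67.6, 66.3 and 66.9 in knockouts. Control 1 was again the lowest library, while the 3 knockouts lay close together (0.15 ± 0.14, adjusted p = 0.581). Control 2 was the highest, and without it all knockouts lay above both other controls (0.25, adjusted p = 0.268). The SR-related matrix proteins act as splicing coactivators without binding RNA as classical SR proteins do. Srrm2, a scaffold of nuclear speckles, had 355.1 to 374.9 CPM in controls and 339.6 to 372.1 in knockouts (-0.03, adjusted p = 0.885). Srrm1 had 127.0, 106.4 and 122.6 CPM in controls and 101.9, 111.0 and 107.0 in knockouts, and overlapped only through control 2 (-0.16 ± 0.12, adjusted p = 0.463, and -0.22 with 0.171 without it).

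None of the 7 hnRNP genes was called. Their log2 fold changes were positive for 3 and negative for 4, with a median of -0.05. Their summed level was 1436 ± 27.7 CPM in controls and 1455 ± 9.72 in knockouts. Hnrnpa2b1, which encodes an abundant RNA-binding protein of splicing, transport and microRNA sorting, had 391.2, 341.1 and 344.9 CPM in controls and 403.8, 431.3 and 404.0 in knockouts. All knockouts lay above all controls (0.20 ± 0.12, adjusted p = 0.347). Hnrnph1, a binder of G-rich sequence, was the other hnRNP gene with groups apart, with 202.6 to 217.3 CPM in controls and 219.6 to 231.9 in knockouts (0.09 ± 0.11, adjusted p = 0.650).

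Hnrnpa1, the classical antagonist of SRSF1 at exonic silencers, had 134.4, 101.6 and 122.5 CPM in controls and 94.8, 104.9 and 103.6 in knockouts. Control 2 was the 1 control inside the knockout range (-0.25 ± 0.13, adjusted p = 0.325), and without it the log2 fold change was -0.34 (adjusted p = 0.0852). Hnrnpd, which also controls the decay of AU-rich messenger RNAs, had 67.3, 87.9 and 62.3 CPM in controls and 51.6, 67.6 and 69.5 in knockouts. Its value of -0.19 ± 0.18 (adjusted p = 0.551) was -0.04 without control 2, the library in which it was highest. Its relative Hnrnpdl had 196.5 to 236.3 CPM in controls and 190.7 to 224.9 in knockouts (-0.05, adjusted p = 0.843). Hnrnpk, a binder of C-rich sequence, had 112.4 to 122.96 CPM in controls and 109.3 to 141.2 in knockouts (0.05, adjusted p = 0.864). Hnrnpu, a scaffold protein of chromatin and RNA, had 300.8, 338.1 and 364.9 CPM in controls and 371.5, 285.6 and 296.3 in knockouts, with control 3 and knockout 1 highest (-0.07 ± 0.15, adjusted p = 0.802).

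The RNA-binding proteins Rbm5, a regulator of apoptosis-related exons, and Rbm39, a relative of the polypyrimidine tract factor U2AF, overlapped between groups. Rbm5 had 133.5 to 151.7 CPM in controls and 139.0 to 148.8 in knockouts (0.02, adjusted p = 0.923), and Rbm39 had 244.6 to 287.9 and 273.3 to 285.7 (0.07, adjusted p = 0.743).

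The 3 LUC7-like genes, whose products join the RNP that recognises 5′ splice sites, had unlike estimates, whose difference was not tested. Luc7l2 (ENSMUSG00000029823; chromosome 6, 38551334 to 38609470) had 222.3, 240.6 and 211.2 CPM in controls and 146.5, 170.8 and 174.7 in knockouts. Every knockout lay below every control, at 73.0% of the control mean (224.7 ± 14.9 to 164.0 ± 15.3 CPM). The log2 fold change was -0.45 ± 0.12 (95% interval -0.74 to -0.17), and the adjusted p was 0.0869 by edgeR, 0.0670 in limma and 0.0195 in DESeq2, and 0.0812 to 0.319 in the 6 fits that left out 1 library. Luc7l (chromosome 17, 26252896 to 26285504) had 30.4, 33.4 and 39.5 CPM in controls and 38.7, 79.5 and 34.5 in knockouts. Knockout 2 alone was high, 2.62 times the lowest library. The log2 fold change of 0.56 ± 0.33 (adjusted p = 0.351) was 0.09 when knockout 2 was left out. The processed pseudogene Gm16580 lies within the span of Luc7l and had 17.7 to 21.9 CPM, with 18.5 in knockout 2. Luc7l3 had 121.1, 149.4 and 104.1 CPM in controls and 129.5, 137.0 and 112.8 in knockouts, with full overlap (0.02 ± 0.16, adjusted p = 0.954).

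Of the RS-rich speckle proteins, Son was lower in every knockout library. Son, which holds speckles together and supports the splicing of weak introns (chromosome 16, 91647506 to 91679221), had 793.9, 749.0 and 775.2 CPM in controls and 626.7, 641.1 and 633.7 in knockouts. The spread within each group was small beside the distance between them (772.7 ± 22.6 and 633.8 ± 7.23 CPM, 82.0% of control). The log2 fold change was -0.29 ± 0.11 (95% interval -0.54 to -0.03), and the adjusted p was 0.176 by edgeR, 0.136 in limma and 0.0387 in DESeq2. In the 6 edgeR fits that left out 1 library it ran from 0.105 to 0.461. The lowest came without control 2, where the log2 fold change was -0.30. Pnisr, an RS-rich protein of speckles, had 132.0, 125.0 and 111.4 CPM in controls and 122.8, 105.0 and 96.9 in knockouts, with overlapping groups (-0.18 ± 0.13, adjusted p = 0.461).

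The DEAD-box helicases Ddx5 and Ddx17, which remodel RNA in splicing, transcription and microRNA processing, were the most abundant members per kilobase of merged exon. Of that length, 0% lies only in transcripts that keep an intron for Ddx17, against 37.9% for Srsf5 and 63.0% for Hnrnpa2b1. The rank of Ddx17 therefore depends on the length used. Ddx5 had 1556, 1288 and 1541 CPM in controls and 1428, 1383 and 1432 in knockouts, with control 2 lowest (-0.05 ± 0.13, adjusted p = 0.864). Ddx17 had 793.0, 716.7 and 668.7 CPM in controls and 700.9, 705.2 and 699.0 in knockouts, inside the control range (-0.05 ± 0.12, adjusted p = 0.843). Without control 2, all knockouts of Ddx5 lay below both remaining controls, with a log2 fold change of -0.13 (adjusted p = 0.485).

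**Figure D3:**
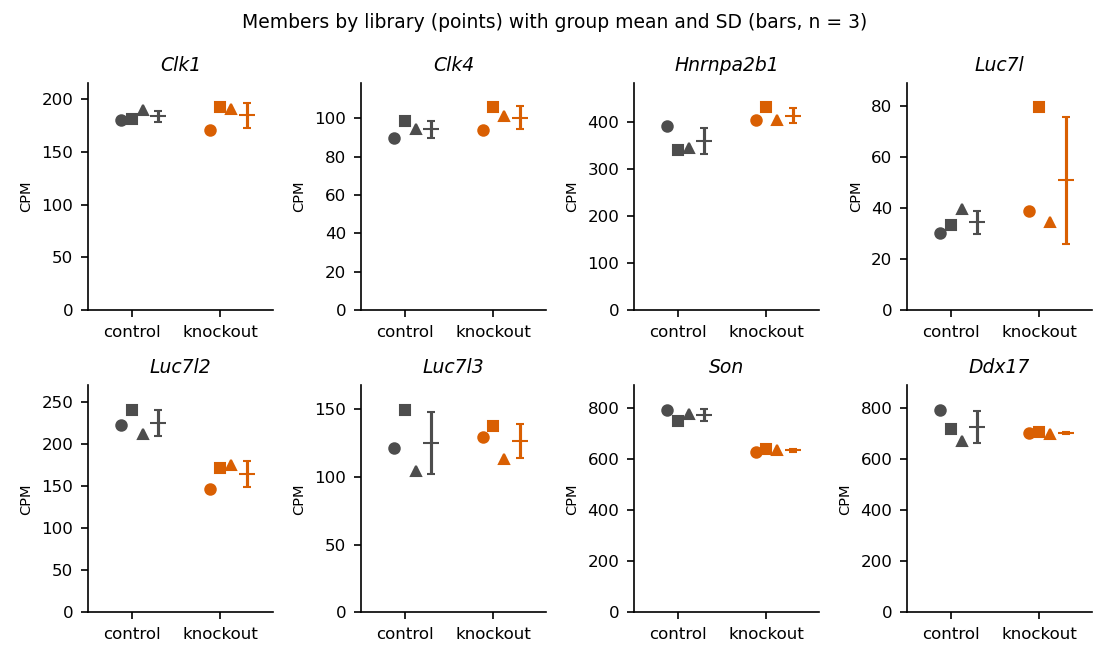
Level (CPM, linear axis from 0) of 8 splicing regulators by library; points are the 3 control (grey) and 3 knockout (orange) libraries, with symbols for replicates 1 to 3, and bars are the mean and SD. Luc7l2 and Son lie lower in all 3 knockouts, knockout 2 alone is high for Luc7l, and Clk1 overlaps fully.

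Other splicing genes were taken from 6 lists with 166 entries, of which 162 passed the filter. Of these, 5 were called by edgeR, 4 higher and 1 lower, beside 3.45% of all tested genes. Sfswap, an RS-domain protein related to a fly splicing regulator, had 91.5, 100.8 and 109.5 CPM in controls and 157.2, 157.3 and 161.0 in knockouts (0.66 ± 0.11, adjusted p = 0.0340). Rbm38, an RNA-binding protein induced by p53, had 8.04, 12.6 and 11.6 CPM in controls and 31.6, 24.8 and 21.97 in knockouts (1.31 ± 0.22, adjusted p = 0.0325). In both, the lowest knockout library lay well above the highest control library. Prpf8, the large protein at the catalytic centre of the spliceosome, fell from 206.7 ± 19.3 to 131.2 ± 6.501 CPM (-0.65 ± 0.12, adjusted p = 0.0383). Dhx38, a helicase of the catalytic steps, rose from 47.0 ± 4.56 to 71.3 ± 4.65 CPM (0.61 ± 0.12, adjusted p = 0.0434), and Rbm8a, a core protein of the exon junction complex, from 32.3 ± 1.07 to 46.5 ± 1.73 CPM (0.52 ± 0.11, adjusted p = 0.0461). Each of the 5 calls was lost without control 1 or without any 1 of the 3 knockouts, and all but that of Sfswap were also lost without control 3, with adjusted p-values up to 0.167 for Sfswap, 0.158 for Rbm38, 0.186 for Prpf8, 0.197 for Dhx38 and 0.205 for Rbm8a.

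By list, 1 of 24 other SR and RS-rich proteins was called (median log2 fold change -0.09), 0 of 12 other SR protein kinases (-0.02), 0 of 25 other hnRNP proteins (-0.05), 1 of 26 tissue splicing regulators (-0.08), 2 of 60 core spliceosome genes (0.09) and 1 of 15 genes of the exon junction complex and nonsense-mediated decay (0.25). At an unadjusted p under 0.05 there were, in the same order, 3, 0, 2, 4, 13 and 5 genes, beside 22.7% of all tested genes. DESeq2 and limma called 0 kinases and 0 hnRNP genes, beside 9.3% and 4.73% of all tested genes. Without control 2, edgeR called 1 kinase and 0 hnRNP genes, beside 5.51% of all tested genes. The kinase was Hipk2, chosen after its values were seen (0.80, adjusted p = 0.0433, against 0.27 and 0.716 with all libraries). In the decay list, 11 log2 fold changes were positive and 4 negative, and Eif4a3, the helicase of the exon junction complex, had 52.8 ± 3.995 CPM in controls and 73.1 ± 5.53 in knockouts (0.46, adjusted p = 0.0742). Rsrp1, an RS-rich protein, had 125.2 ± 10.7 and 89.9 ± 9.29 CPM (-0.48, adjusted p = 0.0851), and Rbm25, a U1-associated splicing factor, had 167.2 ± 5.30 and 218.1 ± 10.7 CPM (0.38, adjusted p = 0.0942). Control 2 lay far above controls 1 and 3 for 2 other genes. Hnrnpa3, a relative of Hnrnpa1, had 15.7, 99.0 and 23.4 CPM in controls and 14.1, 7.59 and 6.32 in knockouts (-2.24 ± 0.77, adjusted p = 0.161). Ptbp1, the repressor that binds polypyrimidine tracts, had 79.9, 143.9 and 78.8 CPM in controls and 151.9, 154.5 and 161.0 in knockouts. Its log2 fold change of 0.64 had an adjusted p of 0.165, and of 0.0126 without control 2.

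**Figure D4:**
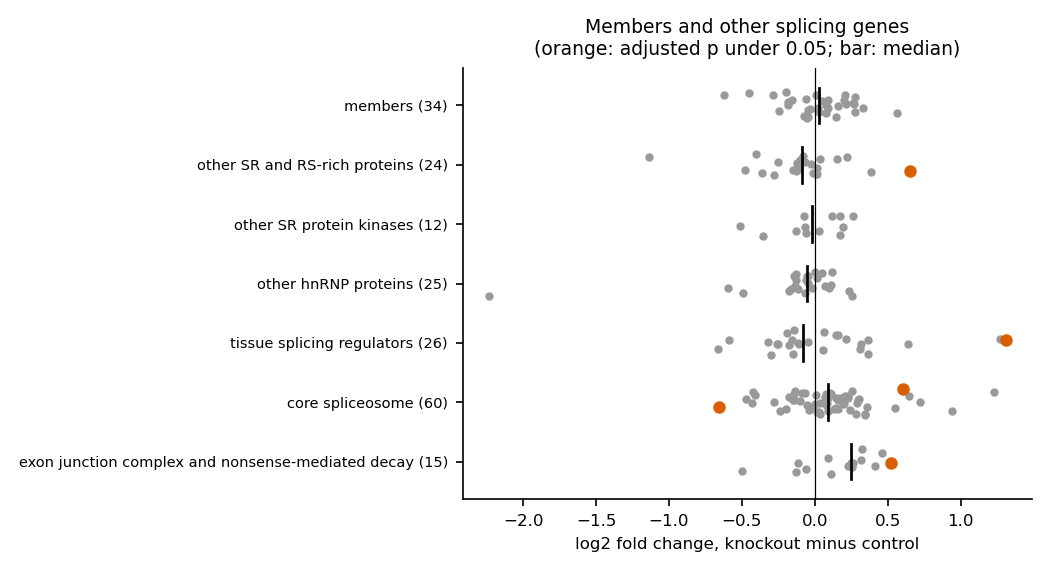
Log2 fold change (knockout minus control, horizontal axis) of the 34 members and of the tested genes of 6 other splicing lists, with the number of genes in brackets; each point is a gene, orange points have an adjusted p under 0.05 and bars mark medians. No member is orange, and 5 of the 162 other genes are.

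Most members have a transcript structure in common that the choice by symbol did not use. In the GENCODE M21 annotation, 31 of the 34 (91.2%) have at least 1 transcript of the kind degraded by nonsense-mediated decay, against 28.3% of 13241 tested protein-coding genes and 29.9% of the 5340 at least as abundant as the member with the lowest level. The 3 without one are Srsf10, Hnrnph1 and Ddx17. A retained-intron transcript is annotated for 28 members (82.4%), against 57.7% and 66.8% in those gene sets. Rbm5 and Hnrnpk have 13 such transcripts each and Srsf11 has 11, and Clk1 and Clk4 have 7 each beside 1 and 4 protein-coding transcripts. Of the exon sequence of a member, a median of 20.4% lies only in retained-intron transcripts, against 8.46% over all genes compared. The share was above 50% for 10 members, among them Rbm5 (74.0%), Tra2a (69.6%), Clk1 (63.8%), Hnrnpa2b1 (63.0%) and Clk4 (59.8%). Counts here are per gene. They cannot separate the coding transcripts of Clk1 or Srsf3 from those with a retained intron or an early stop codon, so equal gene counts do not show equal amounts of coding RNA.

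**Figure D5:**
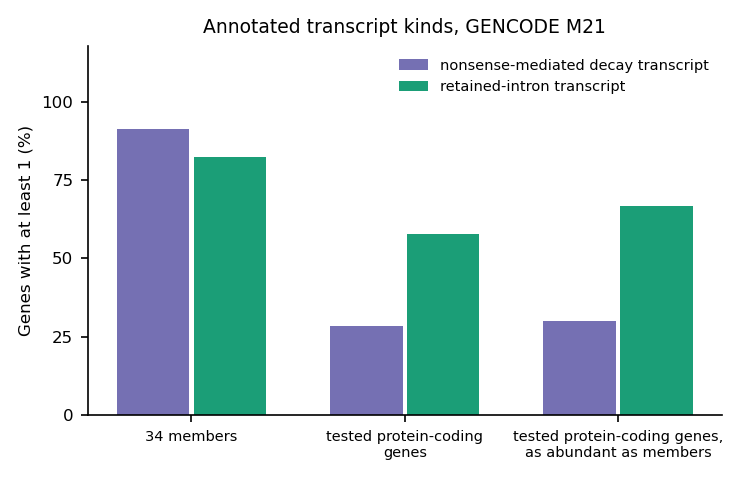
Percentage of genes with at least 1 annotated nonsense-mediated decay transcript (purple) or retained-intron transcript (green) in GENCODE M21, for the 34 members, all tested protein-coding genes, and those at least as abundant as the lowest member. Decay transcripts are annotated for 91.2% of members and 28.3% of tested protein-coding genes.

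This structure enters the deposited FPKM, which divide by gene length. The length used equalled the sum of all distinct exon records in GENCODE M21, within 0.1%, for all 34 members and for 7472 of 7701 genes compared, so that overlapping exons were counted repeatedly. It was a median of 1.69 times the merged exon length for members (1.17 for Ddx17 to 2.80 for Hnrnpk), against 1.38 over all genes compared. Levels between genes are therefore given per kilobase of merged exon. On that scale the controls ordered as Ddx5 (253.1 ± 26.1 CPM per kb), Ddx17 (95.01 ± 8.20), Srsf5 (67.4 ± 9.30), Srsf2 (66.8 ± 7.87), Hnrnpa2b1 (54.5 ± 4.23) and Son (51.8 ± 1.51), and Srsf5 and Srsf2, as well as Hnrnpa2b1 and Son, did not differ beyond their spread. At the other end stood Clk3 (8.37 ± 0.64), Tra2b (6.59 ± 1.09) and Luc7l (4.57 ± 0.62). Srsf5 ranked 3 by merged exons and 9 by deposited FPKM, Srsf7 16 and 23, and Hnrnpk 19 and 28. Merged exons still hold the sequence that lies only in retained-intron transcripts: 63.0% for Hnrnpa2b1, 37.9% for Srsf5, 6.86% for Son and 0% for Ddx17. The longest coding transcript of Hnrnpa2b1 has 1728 bp, against 6584 bp of merged exon, and that of Son 8731 against 14907. The order between genes therefore depends on the length chosen. The ratio of the groups for 1 gene does not depend on the length, which cancels.

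Reads of neighbouring genes may limit some values. The span of 16 members, from start to end, overlaps another annotated gene. Whether their exons overlap was not checked, and no source used here states the strand setting of the counting. How reads from sequence that such a pair shares were assigned is therefore not known. The overlapping gene had 1581 counts beside 3514 for Luc7l (Gm16580), 1852 beside 5653 for Clk3 (Edc3), 2201 beside 17272 for Srsf2 (Mfsd11) and 1131 beside 9102 for Srsf4 (Gm12992), summed over the 6 libraries. For Srsf1 it was an antisense gene with 14 counts beside 5584, and for Son it was Donson with 514 beside 54123. Luc7l2 overlaps no annotated gene. Hnrnpa1 is known for many processed pseudogenes, and how reads that match several copies were counted is not stated, so its level is uncertain.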

How the data were processed

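The authors deposited, per the file headers, 2 values per gene for each of 6 aorta libraries: a whole-number read count, and FPKM (fragments scaled by gene length and library size). Per the submitters' processing notes, they used HISAT2, CASAVA 1.8, SAMtools 1.3.1 and edgeR; no source used here states the read counter, annotation or strand setting. The notes name GRCm39, but 54784 of 55141 gene identifiers shared with GENCODE M21 (99.4%), all 34 members among them, had GRCm38 positions, which are used here.

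Counts were analysed in R 4.3.3 with edgeR 4.0.16 (filterByExpr by group, TMM, glmQLFit and glmQLFTest with robust estimation), with Benjamini-Hochberg adjustment over 16139 genes and a threshold of 0.05. Standard errors are the size of the log2 fold change over the square root of F. DESeq2 1.42.0, limma 3.58.1 with voom, other scalings and filters, a replicate block and 6 fits without 1 library were alternatives. Steps were tested on simulated data. FPKM served for gene lengths. RefSeq promoters are on GRCm38.p6. The members and lists were chosen with earlier results of these data known. Named genes were all 34 members, Ogt, Oga, Malat1 and Neat1, and from each list every gene called or the up to 4 with the smallest p; pseudogenes and genes in the closing observations were chosen after their values were seen. Neat1 had 972.2 to 1192 CPM in controls and 932.2 to 1025 in knockouts (adjusted p = 0.493).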

Additional observations from a re-analysis of the deposited data

How the results depend on the processing

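The members called went from 0 to 3 with DESeq2, all of them lower, and stayed at 0 in the other 6 alternatives and the 6 fits without 1 library. Over all genes, 1501 were called by DESeq2, 28 with the replicate number as a block and 7 to 911 in the fits without 1 library. Of the 6 fits, the lowest count came without control 1 and the highest without control 2. Of the other splicing genes, 13 were called by DESeq2, 3 with no filter and 0 to 9 without 1 library (9 without control 2). With the replicate block, 0 of them and 0 members were called, and the adjusted p was 0.0572 for Ogt, 0.0845 for Oga, 0.0910 for Tagln and 0.106 for Cox8b. Same-numbered libraries did not deviate together from their group means (correlations of 0.05, 0.09 and -0.06). The numbers used here are those of the sample titles. In the deposited headers the groups share no number. The labels do not say whether the numbers pair the libraries, and these correlations cannot settle it.

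Direction was kept by 24 members in every alternative and turned in some by 10, whose log2 fold changes were at most 0.19 in size. With no filter, Srrm2 was 0.0181 and Ddx17 0.000833. In the fits without 1 library, the values ran from -0.0160 to 0.0710 for Clk1, -0.69 to 0.28 for Srsf3, -0.0746 to 0.119 for Srsf5, -0.0616 to 0.00402 for Srrm2, -0.118 to 0.0258 for Hnrnpdl, -0.0562 to 0.138 for Hnrnpk, -0.191 to 0.00157 for Hnrnpu, -0.00562 to 0.0869 for Rbm5, -0.0908 to 0.173 for Luc7l3 and -0.104 to 0.0134 for Ddx17. Malat1, not a member, ran from -1.97 to 0.31, the highest without control 2. The cause was not tested. Control 2 had the fewest counts, so counting error is largest there, above all for Srsf9.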

Other observations

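The libraries in which Srsf3 and Luc7l stood out were also high for some genes outside the splicing lists, chosen after their values were seen. No share of all tested genes with such a pattern is given here, so these are single cases. Arrb1, which encodes beta-arrestin, had 9.004, 27.4 and 92.2 CPM in controls 1 to 3 and 116.7, 15.6 and 10.9 CPM in knockouts 1 to 3. Control 3 and knockout 1 were its highest libraries, as for Srsf3. Ftl1-ps1, a copy of the ferritin light chain gene, had 68.9, 121.6 and 235.5 CPM in controls and 258.6, 89.5 and 63.3 CPM in knockouts, with the same 2 libraries highest. Cd47, the cell surface signal against phagocytosis, had 58.2 to 63.7 CPM in controls and 51.0, 164.8 and 76.8 CPM in knockouts, and was highest in knockout 2, as was Luc7l.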
